A study of Mus musculus with 18 samples.

Results

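Pgrmc1 (Entrez gene 53328) was followed across 18 cDNA arrays of mouse heart, each read in a red and a green channel, on which it had 1 spot and a value on every array. It is 1 of 6945 named genes that could be tested, and it was chosen by its log2 channel ratio, which was low on the arrays of 2 weeks of constant hypoxia beside the 2-week controls. The groups were chronic constant hypoxia (CCH), chronic intermittent hypoxia (CIH) and controls, each lasting 1, 2 or 4 weeks, which makes 9 groups of 2 arrays. On every array a male heart, labelled with Cy5, was set against a female heart, labelled with Cy3, after equal treatment. The labels give no strain, age or oxygen level. Nothing in them ties replicate arrays to separate animals, so p-values cover only array-to-array spread, which may be technical.

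PGRMC1 is a small membrane protein of the endoplasmic reticulum that binds heme through a domain related to cytochrome b5. It is known to bind cytochrome P450 enzymes of drug and sterol metabolism, to associate with ferrochelatase, the enzyme that puts iron into heme, and to form a complex with the sigma-2 receptor TMEM97 in lipoprotein uptake. Its gene lies on the X chromosome, so that males carry a single copy, while females carry a pair of copies, as a rule with 1 of them silenced in each cell.

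The stretch before the gene's start is shown because the series is about oxygen and the letters of a hypoxia response element can be looked for in it. It covers chrX:36597943-36598192 on the plus strand of GRCm38.p6 (RefSeq), written 5′ to 3′, and the capitals mark the GC box GGGCGG or its reverse complement.
Pgrmc1, 250 bases before the start: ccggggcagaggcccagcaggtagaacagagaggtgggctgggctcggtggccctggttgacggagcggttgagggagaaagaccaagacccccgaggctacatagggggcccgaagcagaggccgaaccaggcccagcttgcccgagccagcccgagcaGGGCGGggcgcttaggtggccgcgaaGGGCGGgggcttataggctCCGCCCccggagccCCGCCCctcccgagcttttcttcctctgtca
The GC box, the site of Sp family factors, was found 4 times, with 2 matches on each strand, and 32.7% of 32851 such windows in RefSeq hold at least 1. The core of the hypoxia response element, searched as ACGTG or GCGTG on both strands, had 0 matches here and was present in 38.6% of the windows. The letters TATAAA (12.4% of windows) and CCAAT (33.8%) had 0 matches. These counts describe the letters of this window alone. G and C made up 69.6% of the bases, more than in 90.2% of the windows, and CG occurred 18 times against a median of 6.

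Each value below is a log2 ratio of the channels after the median of its array was set to 0. Which channel is on top is not stated in the labels. Male over female is likely, because the male cDNA was in the first channel and, of the 2 spots of the Y-linked gene Eif2s3y, 1 was above 0 on 17 of the 17 arrays that measured it, with ratios from 1.36 to 3.54. The other spot was above 0 on 16 of 18. A lower ratio therefore means less signal from the male heart relative to the female heart, and a ratio cannot show in which of the sexes the transcript changed. In whole heart RNA, fewer cells that use a gene and less of its RNA per cell cannot be told apart. The number of arrays limits the precision. Spots with a value numbered 20489 to 24512 on the 1-week arrays, 15802 to 19720 on the 2-week arrays and 12650 to 17904 on the 4-week arrays. Of 153 pairs of arrays, 12 had a correlation under -0.3 over all spots, the lowest being -0.53. Because the values are ratios, they give no level of the heart's own markers.

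Pgrmc1 was far below 0 in hearts after 2 weeks of constant hypoxia. Its ratios there were -1.67 and -1.11 (0.314 and 0.463 on the linear scale), against 0.19 and 0.25 in the 2-week controls. The groups did not overlap, and the means were -1.39 ± 0.40 in CCH and 0.22 ± 0.04 in controls (SD, n = 2 each). The difference was -1.61 on the log2 scale, which is 3.06-fold lower. Over all spots the 2 CCH arrays correlated at 0.653 with each other and the 2 control arrays at 0.091. These arrays chose the gene, so the difference is a description and carries no test. On the CCH arrays only 0.968% and 1.08% of the spots were lower than Pgrmc1, against 88.3% and 80.3% on the controls. Among the 10272 units tested (named genes, and spots without a gene name of their own), the difference of Pgrmc1 was the fourth lowest, and 150 units (1.46%) differed by 1 or more in either direction. By limma, 2 units (0.0195%) passed an adjusted p of 0.05 in this comparison, a count that includes the gene it served to choose and from which nothing is read for Pgrmc1. That count was 0 when any 1 of 9 arrays was left out, namely either array of the groups 2-week CCH, 2-week CIH, 2-week control and 1-week CIH, or replicate 1 of 4-week CCH.

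**Figure D1:**
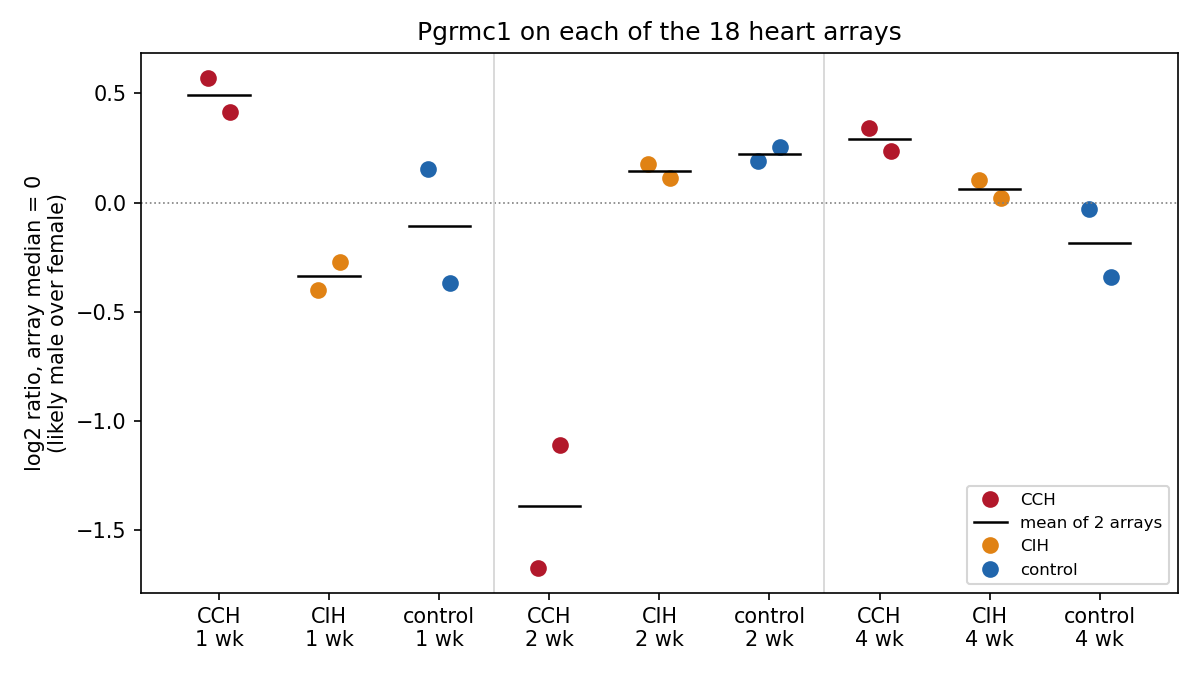
Log2 ratio of Pgrmc1 on each array (vertical axis, array median at 0, likely male over female) for CCH, CIH and control hearts at 1, 2 and 4 weeks; points are arrays and bars the mean of 2 arrays. The 2-week CCH arrays, at -1.67 and -1.11, lie below the other 16 arrays, which run from -0.40 to 0.57.

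The other 16 arrays all had Pgrmc1 above its 2-week CCH ratios, with 10.2% to 90.3% of their spots lower than it. Their ratios ran from -0.40 to 0.57 with a median of 0.13, and the higher 2-week CCH array lay 0.71 below the lowest of them. Arrays of the same group differed by 0.06 (2-week controls) to 0.56 (2-week CCH). The SD within groups was 0.205, and 23.1% of all units had a smaller one, with a median of 0.279. By group mean the order from low to high began with 2-week CCH (-1.39), which overlapped no other group. Next came 1-week CIH (-0.33), 4-week control (-0.19), 1-week control (-0.11) and 4-week CIH (0.06), each overlapping its neighbour in that order. Then came 2-week CIH (0.14), which overlapped 1-week control but neither of its neighbours. The order ended with 2-week control (0.22) and 4-week CCH (0.29), which overlapped each other, and 1-week CCH (0.49), which overlapped no other group.

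At 1 week, constant hypoxia went with a ratio above that of the controls. Pgrmc1 was at 0.57 and 0.42 in CCH hearts, against 0.16 and -0.37 in control hearts. The groups did not overlap, but the controls differed from each other by 0.52. The difference was 0.60 ± 0.23 (SE, n = 2 arrays each, 95% interval 0.11 to 1.10) with a limma adjusted p of 0.711, so it did not pass. It was 0.34 without replicate 2 of the controls. In this comparison 0 of 10272 units passed (0%), while 632 had an unadjusted p under 0.05. The liver markers of the array were uneven at this time. The 5 tested of 10 had a median ratio of 2.31 on replicate 1 and -0.68 on replicate 2 of CCH, against -0.09 and -0.03 on the controls, and Pgrmc1 was above both controls on both CCH arrays.

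At 4 weeks the ratio of CCH hearts again lay above the controls. Pgrmc1 was at 0.34 and 0.24 in CCH hearts, against -0.03 and -0.34 in control hearts, with no overlap. The difference was 0.48 ± 0.23 (SE, n = 2 each, 95% interval -0.02 to 0.97; limma adjusted p = 0.344). Here 0 of 10272 units passed (0%), with 1549 at an unadjusted p under 0.05. Averaged over 1 and 4 weeks, CCH minus control was 0.54 ± 0.16 (SE, limma adjusted p = 0.299), a comparison in which 2 units (0.0195%) passed. All 4 of the CCH arrays lay above the mean of their controls. An exact two-sided permutation within duration gave p = 0.0556, the smallest that its 36 relabellings allow. Constant hypoxia thus had its lowest and its highest Pgrmc1 ratios of the series, at 2 and at 1 week, and the change of its sign between durations was not tested, since the 2-week arrays chose the gene.

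**Figure D2:**
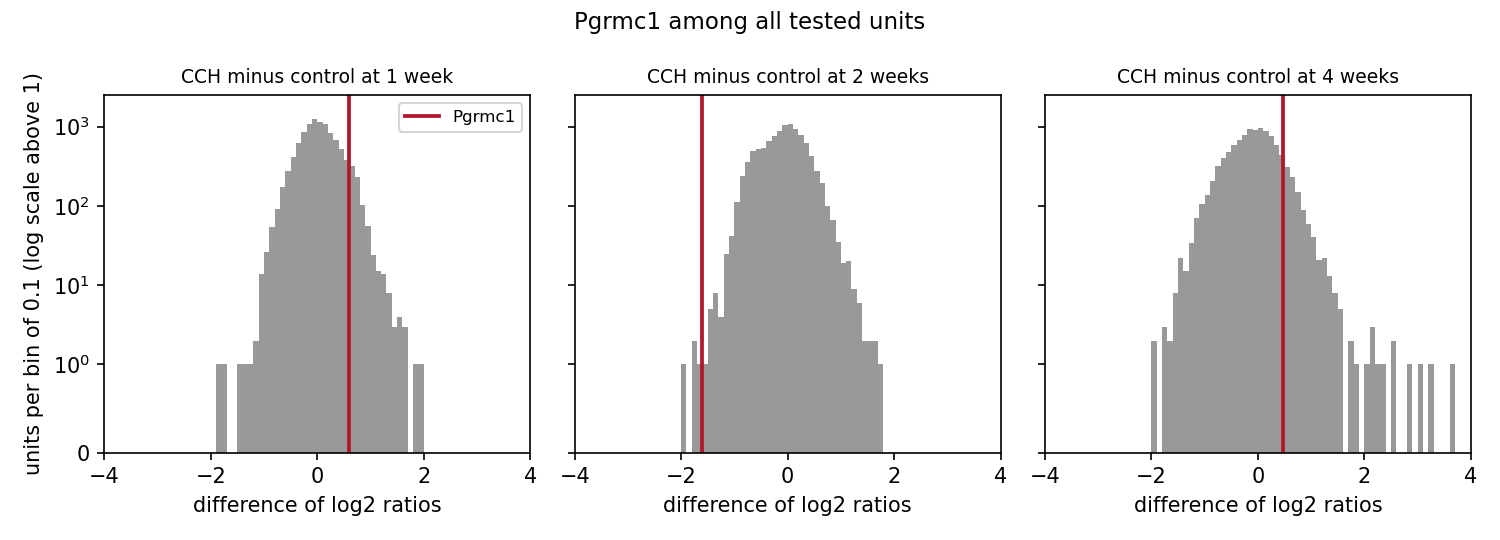
Histograms of CCH minus control (horizontal axis, difference of log2 ratios) for all 10272 tested units at 1, 2 and 4 weeks, with counts per bin of 0.1 on a scale that is logarithmic above 1; the red line is Pgrmc1. Pgrmc1 is at 0.60, -1.61 and 0.48, in the lower tail at 2 weeks.

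Under intermittent hypoxia the mean of Pgrmc1 differed from the controls by -0.23 to 0.25 at the 3 durations. At 2 weeks its ratios were 0.18 and 0.11 in CIH hearts, against 0.19 and 0.25 in control hearts, a difference of -0.08 that is given without a test because it uses the same controls as the choice of the gene. With quantile normalization this difference was -0.29. In that comparison 1 of 10272 units (0.00974%) passed by limma, Phtf1, and 0 passed without replicate 2 and 6 without replicate 1 of the 2-week controls. At 1 week the ratios were -0.40 and -0.27 in CIH hearts, against 0.16 and -0.37 in control hearts. The groups overlapped, and the difference of -0.23 ± 0.23 (SE, n = 2 each, 95% interval -0.72 to 0.27) did not pass by limma (adjusted p = 1). It turned to 0.03 without replicate 1 of the 1-week controls. At 4 weeks CIH hearts had 0.10 and 0.02, against -0.03 and -0.34 in control hearts. They did not overlap, with a difference of 0.25 ± 0.23 (SE, n = 2 each, 95% interval -0.25 to 0.74; limma adjusted p = 0.914). It was 0.09 without replicate 2 and 0.40 without replicate 1 of the 4-week controls. In these comparisons at 1 and 4 weeks 0 of 10272 units passed (0%), with 240 and 836 at an unadjusted p under 0.05. Averaged over 1 and 4 weeks the difference was 0.01 ± 0.16 (SE, limma adjusted p = 0.998; exact permutation p = 0.944 over 36 relabellings, two-sided), and 0 units (0%) passed, with 696 at an unadjusted p under 0.05. The CCH and CIH comparisons share their control arrays.

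The labels of 1 array conflict. Its title gives 1 week of CIH, as it is grouped here (replicate 1, Pgrmc1 at -0.40), and its sources name 2 weeks of CCH. Over all spots it correlated at 0.365 with the other 1-week CIH array and at 0.518 and 0.415 with the 2-week CCH arrays. Which label is right was not tested. Counted as a 2-week CCH array it moved CCH minus control at 2 weeks to -1.28. Without it CIH minus control at 1 week was -0.16. Another array, replicate 1 of the 2-week controls (Pgrmc1 at 0.19), carries a code whose digit does not match its week, and without it the 2-week CCH difference was -1.64.

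Outside the 4 arrays that chose it, the mean ratio of Pgrmc1 lay close to 0, while its group means ran from -0.33 (1-week CIH) to 0.49 (1-week CCH). The mean ratio of the other 7 groups was 0.05 ± 0.06 (SE, n = 14 arrays, 95% interval -0.08 to 0.18), with a limma adjusted p of 0.555 in a comparison where 27.8% of units passed. It was above 0 on 9 of 14 arrays, and exact sign flips gave p = 0.527 (two-sided). The mean was -0.01 without centring, -0.04 with quantile normalization and -0.01 with the replicate letters as a block. Sex and dye cannot be told apart here, because 18 of 18 arrays held the male heart in Cy5.

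The low ratio at 2 weeks of CCH was next set beside other X-linked genes. Of 192 tested, 99 (51.6%) were lower in CCH than in controls, with a median of -0.02, against 51.3% and a median of -0.01 over all named genes. By limma 0 of the 192 passed, as against 0.0195% of units. Of the 192, 5 differed by 1 or more in either direction, beside 89 of all 6945 named genes and 1.46% of all units. The 4 tested genes whose starts lie nearest to that of Pgrmc1 in RefSeq went different ways, and none passed. Slc25a5, which encodes an ADP/ATP carrier of the mitochondrial inner membrane, was at 0.38 and 0.26 in CCH hearts, against -0.22 and -1.17 in control hearts (difference 1.01 ± 0.36 SE, n = 2 each, limma adjusted p = 0.498). Nkap, a nuclear protein that represses transcription, was at -0.94 and -0.97 in CCH hearts, against 0.03 and 0.07 in control hearts (difference -1.01 ± 0.33 SE, limma adjusted p = 0.498). The ubiquitin-conjugating enzyme gene Ube2a differed by 0.29 and Lonrf3 by -0.01. Lonrf3 has 1 protein-coding gene of RefSeq between itself and Pgrmc1, Slc25a5 has 2, Ube2a 4 and Nkap 10. Of the 6 tested genes known to escape X inactivation, 2 were lower in CCH (Kdm6a -0.13 and Pbdc1 -0.24) and 4 higher (Ddx3x 0.05, Utp14a 0.16, Usp9x 0.39 and Kdm5c 0.50), again with 0 calls. Over all 9 groups 27.7% of units passed, 18.7% below 0 and 8.99% above it. There 36 of the 192 X-linked genes lay below 0 and 22 above it by the test, and of the 6 escape genes 3 lay below (Kdm6a -0.49, Ddx3x -0.33, Utp14a -0.26) and Kdm5c above (0.30).

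Pgrmc2, the close relative of Pgrmc1 with the same heme-binding fold, had values on 15 arrays and no low ratio at 2 weeks of CCH. It was at 0.09 and -0.28 in CCH hearts, against -0.42 and 0.10 in control hearts. The groups overlapped and the difference was 0.07 ± 0.24 (SE, n = 2 each, limma adjusted p = 0.925). At 1 week the difference was -0.13 and at 4 weeks, with 1 CCH and 1 control array, 0.05. Over all 9 groups its ratio was 0.21 ± 0.07 (SE, limma adjusted p = 0.0307), above 0 as for 8.99% of units. The other listed members of the family, Nenf and Cyb5d2, had no spot annotated to them alone and were not analysed.

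Genes of the processes in which PGRMC1 takes part lay on both sides of the controls at 2 weeks of CCH. Pgrmc1 was chosen by its low value in this comparison, so nothing is read from its difference of -1.61 being lower than theirs. Of 14 tested genes of heme synthesis and mitochondrial iron and heme transport, 8 were lower and 6 higher, with a median of -0.05, and 0 passed, as against 2 of 10272 units (0.0195%). The median of all units was -0.05 too. Those with the smallest p-values were Tmem14c, which moves a heme precursor into mitochondria (0.80 ± 0.26 SE), the mitochondrial iron importer gene Slc25a37 (-0.60 ± 0.34) and the transporter gene Abcb10 (0.44 ± 0.26), with limma adjusted p-values of 0.498 to 0.505. Fech, the gene of ferrochelatase, was at -1.66 and 0.26 in CCH hearts, against 0.001 and 0.38 in control hearts, so its CCH arrays lay on either side of the lower control. In 2-week CIH hearts, where Pgrmc1 was at 0.18 and 0.11, Fech was at -1.71 and -1.94 (CIH minus control -2.01 ± 0.54 SE, limma adjusted p = 0.117). Among the 2-week hypoxia arrays, both genes were below -1 on replicate 1 of CCH alone.

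Of 8 tested genes of heme breakdown and transport, 4 were lower and 4 higher in 2-week CCH, with a median of -0.08 and 0 calls. Hmox2, the constitutive heme oxygenase, was at 0.72 and 0.46 in CCH hearts, against 0.24 and -0.60 in control hearts (0.76 ± 0.36 SE, limma adjusted p = 0.498). The biliverdin reductase genes Blvra and Blvrb differed by -0.37 and -0.32. Among 8 tested genes listed as microsomal electron carriers and P450 enzymes 3 were lower, with a median of 0.11 and 0 calls. They include Ptges2 (-0.008), which is neither, and the P450 genes Cyp2e1 (-0.008) and Cyp27a1 (0.014). The first by p-value were Cyb5a, the electron donor cytochrome b5 (0.36), and the reductase genes Cyb5r4 (0.33) and Cyb5r1 (-0.41). Por, the P450 reductase, was not analysed, and Cyp51, a sterol demethylase bound by PGRMC1, had too few values to be tested.

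Of 11 tested genes of sterol synthesis and its control, 8 were lower in 2-week CCH (median -0.06, 0 calls). Sqle, the squalene epoxidase, was at -0.46 and -0.62 in CCH hearts, against 0.12 and 0.27 in control hearts (-0.74 ± 0.35 SE, limma adjusted p = 0.498). Insig2, which holds the sterol sensor in the endoplasmic reticulum, was at 0.45 and 0.34 in CCH hearts, against 0.06 and -0.22 in control hearts (0.47 ± 0.23 SE, adjusted p = 0.498), and Mvd, an enzyme of the mevalonate pathway, differed by -0.50. Of 6 genes around the sigma receptors and progesterone, 2 were lower (median 0.14, 0 calls), the first by p-value being Fkbp4, a chaperone partner of steroid receptors (0.53), Egfr (0.17) and the membrane progestin receptor gene Paqr7 (0.14).

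Over all 9 groups, set beside 18.7% of units below 0 and 8.99% above it, 4 of the 14 heme synthesis genes had a mean ratio below 0 by the test and 0 above it. They were Fech (-0.39, limma adjusted p = 0.0327), Tmem14c (-0.29, adjusted p = 0.00431), the decarboxylase gene Urod (-0.28, adjusted p = 0.00087) and the iron importer gene Slc25a28 (-0.23, adjusted p = 0.009). Of the other lists, Slc48a1, a heme transporter (-0.18), Cyb5r1 (-0.34) and Paqr7 (-0.24) were below 0 by the test, and Lrp1, the receptor that takes up heme-hemopexin (0.33), and Insig2 (0.20) above it. These means pool hypoxia and control arrays, so they do not separate an offset between the channels from a change with hypoxia. Fech ran from -0.18 to 0.53 on the control arrays and from -1.94 to 0.88 on the hypoxia arrays. Slc48a1 ran from -0.18 to 0.31 on the control arrays and from -0.71 to 0.81 on the hypoxia arrays.

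**Figure D3:**
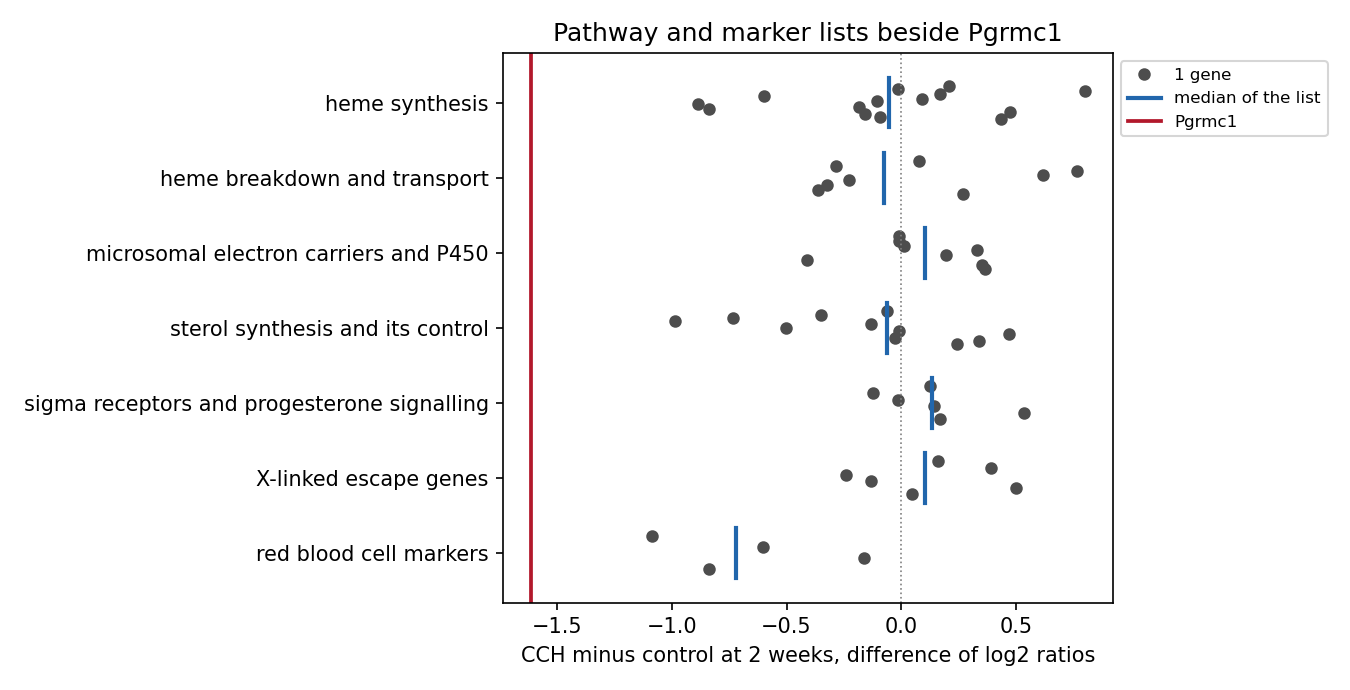
CCH minus control at 2 weeks (horizontal axis, difference of log2 ratios) for each tested gene of 7 lists; points are genes, blue bars list medians and the red line Pgrmc1. The list genes lie between -1.09 and 0.80. Pgrmc1, which was chosen by its low value in this comparison, is at -1.61.

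The channel ratios of red blood cell markers had lower means in 2-week CCH than in controls, but were not lower on both CCH arrays. All 4 tested of the 14 listed markers (Alas2, Slc4a1, Klf1 and Gata1) had a mean ratio below that of the controls. The median difference was -0.72, with 0 calls and no tested hemoglobin gene. By array, the median of those with a value was -1.71 (4 markers) and -0.14 (3) in CCH hearts, -0.79 (4) and -2.63 (2) in CIH hearts and -0.28 (4) and 0.37 (3) in control hearts. The CCH array at -0.14 thus lay between the controls. Pgrmc1 was at -1.11 on the CCH array where the red-cell median was -0.14, and at 0.11 on the CIH array where it was -2.63. Of 11 leukocyte and macrophage markers 8 were lower in 2-week CCH (median -0.31), and of 5 liver markers 5 (median -0.19), beside 55.3% of all units. Lower too were 4 of 6 endothelial markers (median -0.055) and the 1 lung marker (-0.32). In other lists fewer were lower: 2 of 5 cardiac muscle (median 0.11), 2 of 6 skeletal muscle (0.204), 3 of 9 fibroblast and matrix (0.043) and 1 of 2 adipose markers (0.145). Their part in the Pgrmc1 result was not tested.

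Correlations of other genes with Pgrmc1 over the 18 arrays ran from -0.754 (Mrpl4) to 0.838, with a median of 0.02. The highest were picked from these values, so their size is in part due to the picking. Among 5344 other named genes with a value on all 18 arrays, the 5 with the highest Pearson correlation were Psmf1, a regulator of the proteasome (0.84), Aktip, an AKT-interacting protein (0.81), Map4k1, a kinase of blood cells (0.75), Ubash3b, a phosphatase of receptor signalling (0.75), and Tmem104 (0.75). These coefficients compare genes measured on the same slides and depend on the 2-week CCH arrays. Over the 16 arrays without them they were 0.47, 0.60, 0.48, 0.41 and 0.45. Psmf1 was at -0.93 and -0.94 in 2-week CCH hearts, against 0.20 and 0.03 in control hearts, its 2 lowest ratios of the series. Its difference of -1.05 ± 0.24 (SE, n = 2 each) had a limma adjusted p of 0.498. Map4k1 was at -1.28 and -0.86 in CCH hearts, against -0.35 and -0.41 in control hearts, and Aktip at -0.43 and -0.28, against 0.13 and -0.08.

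**Figure D4:**
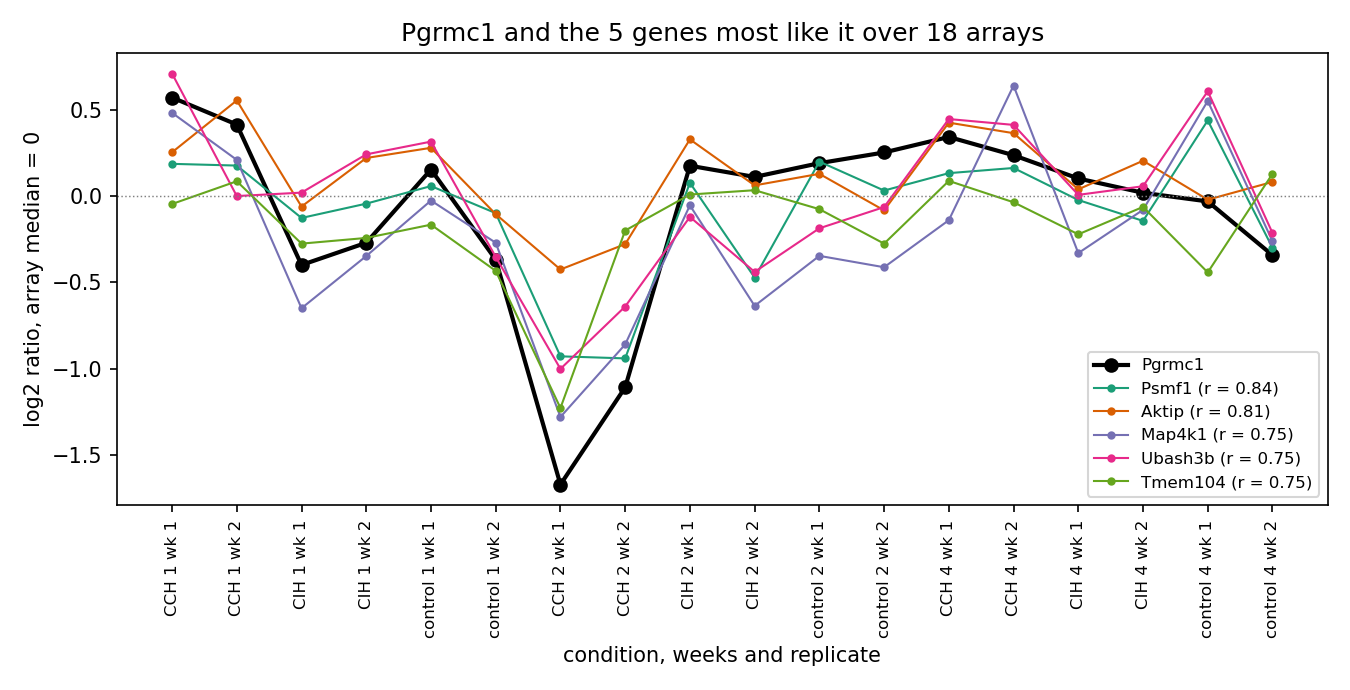
Log2 ratios (vertical axis, array median at 0) of Pgrmc1 and the 5 genes with the highest correlation with it on the 18 arrays, set in order of weeks and condition; lines only join the points of a gene. All 6 genes are below 0 on both 2-week CCH arrays, with Pgrmc1 lowest.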

How the data were processed

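Each deposited value is a log2 channel ratio. As the values show, the authors had set the mean of the linear ratios to 1 on every array. Background correction, spot filter and normalization are not given in the sources used here. Probe names came from the platform annotation and chromosomes and neighbours from RefSeq (GRCm38.p6). Gene IDs of 18267 of 18511 single-symbol spots were found there, and 937 spots had several symbols and 9256 none. The median of each array was subtracted, and a gene's spots were averaged. Units with a value in each of the 9 groups (10272) entered limma 3.58.1 in R 4.3.3 (group means, contrasts.fit, eBayes), two-sided, with Benjamini-Hochberg adjustment over all units and a threshold of 0.05. The fit was tested on simulated data. Genes were named by a rule: Pgrmc1 and its family, list members past the threshold or else the 3 with the smallest p-values, Eif2s3y, the X-linked escape genes, the 4 nearest X-linked genes and the 5 genes with the highest correlation. Fech, and Psmf1, Map4k1 and Aktip by array, were described further after their values were seen. The gene, the lists and the tests were chosen with earlier results of these data known. Alternatives were other normalizations, filters and groupings, the title letters as a block, and each array left out. Figures were drawn with matplotlib 3.10.9.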

Additional observations from a re-analysis of the deposited data

Results flagged for a closer look

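In 5 pairs of comparisons all hypoxia arrays of one lay above the mean of their controls for Pgrmc1 and all of the other below it, and none of these differences was tested. At 1 week CIH and control arrays overlapped, and the CIH difference was 0.03 without replicate 1 of the controls. CCH minus control was 2.215 higher (log2) at 1 week than at 2 weeks, and -2.09 at 2 weeks relative to 4 weeks, both resting on the arrays that chose the gene. At 1 week the CCH effect was 0.83 above the CIH effect, against the same controls. The CIH effect at 4 weeks was the higher one beside 1 week (a difference of -0.48) and beside 2 weeks (-0.33).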

How the results depend on the processing

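In 196 refits of the 7 tested Pgrmc1 comparisons 0 passed the threshold (lowest limma adjusted p = 0.178). The 2-week CCH difference ran from -1.75 to -1.28 over 10 settings (-1.28 with the CIH array of conflicting labels counted as 2-week CCH), and from -1.90 to -1.33 with each array left out. The 2-week CIH difference was -0.29 with quantile normalization. The mean of the other 7 groups turned to -0.0137 without centring, -0.0431 with quantile normalization and -0.0134 with the replicate block. With each array left out, CIH minus control ran from -0.4892 to 0.0334 at 1 week and from -0.12 to 0.14 averaged over 1 and 4 weeks.

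The count of 2 units called for 2-week CCH was 1 with units on all arrays, and 0 with the replicate block, without the 2-week control coded 1A and with the conflicting CIH array left out or regrouped (0 to 3 with each array left out). For 2-week CIH the count of 1 was 3 with equal spread set on all arrays and 6 without the control coded 1A (0 to 6 with each array left out). Over all 9 groups 2845 calls became 490 with the replicate block. Whether the letters pair the arrays is not settled. The A minus B differences of 21 pairs of groups correlated at -0.548 to 0.447, with 9 pairs over 0.1. As 1 spot measures Pgrmc1, spots could not be compared. The causes were not tested.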
